A study of Mus musculus with 6 samples.

Results

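The 8 Fc receptor genes of myeloid cells were read from arrays of mouse MLL-AF9 leukemia cells that lacked or carried the nuclear receptor gene Ppara: Fcer1g, Fcgr3, Fcgr4, Fcgr1, Fcer1a, Fcgr2b, Fcgrt and Fcrls. A gene was included when a probe set, the group of probes that reports a transcript, was paired with its symbol and no other. Each of the 8 genes had 1 such probe set, out of 30745 genes measured in this way. The leukemias had been made by retroviral delivery of the fusion oncogene MLL-AF9, together with green fluorescent protein (GFP), from an MSCV vector, into cells from Ppara-/- or Ppara+/+ mice, a line bought and then backcrossed. GFP-positive bone marrow mononuclear cells were sorted from secondary transplant recipients, and their total RNA was hybridized. There were 3 Ppara-/- and 3 Ppara+/+ arrays, and both groups carried MLL-AF9, GFP and the passage through recipients. The age of the mice, the genotype of the recipients, and whether the replicates of a genotype were separate primary leukemias are not stated by the labels, so the p-values reflect only how these 6 samples vary, which may be technical. The comparison asks which genes differ in leukemia cells without PPARA, among them genes of myeloid differentiation and immune recognition.

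Fc receptors bind the constant part of antibodies and let phagocytes respond to antibody-coated targets. In the mouse, the activating IgG receptors FcγRI, FcγRIII and FcγRIV (genes Fcgr1, Fcgr3 and Fcgr4) pair with the FcRγ chain encoded by Fcer1g, which is needed for their surface expression and carries the ITAM, a tyrosine motif that recruits the kinase SYK once phosphorylated. FcγRIIB (Fcgr2b) is the inhibitory IgG receptor and recruits the phosphatase SHIP1 (Inpp5d) through an ITIM.

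The signals are given on the log2 scale of RMA, the authors' normalization, in which 1 unit is a 2-fold ratio of signal. The 5222 negative-control probe sets had medians of 4.63 to 5.16 and 95th percentiles of 7.91 to 8.23 over the 6 arrays. The highest medians were 4.99 on Ppara-/- replicate 2 and 5.16 on Ppara+/+ replicate 1, and the differences of the 8 Fc receptor genes are also given without these 2 arrays. The label of myeloid leukemia was matched by the signals of Itgam (11.15 ± 0.30 in Ppara-/- and 11.09 ± 0.18 in Ppara+/+ cells; SD, n = 3 each), an integrin of myeloid cells, of Mpo, a granule enzyme of myeloid precursors (11.61 ± 0.53 and 11.66 ± 0.30), and of Meis1, a cofactor of the MLL-AF9 programme (9.11 ± 0.25 and 8.69 ± 0.59). Ppara itself was at 5.19 ± 0.12 in Ppara-/- and 5.08 ± 0.18 in Ppara+/+ cells, near the negative-control medians, and does not check the genotype.

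In Ppara-/- leukemia cells the FcRγ chain gene Fcer1g and the neonatal Fc receptor gene Fcgrt had lower signals on every array than in Ppara+/+ cells, but none of the 8 Fc receptor genes passed the test over all genes. At a limma p of 0.05 after Benjamini-Hochberg adjustment, 0 of the 8 passed, beside 36 of 30745 genes (0.117%, with 0.0585% in each direction). Fcer1g and Fcgrt were the 2 members with an unadjusted limma p under 0.05, both in the lower direction, a level that 5.74% of all genes reached (2.60% lower and 3.14% higher). The genotypes did not overlap in 8.73% of all genes, with Ppara-/- below in 3.62%, as in these 2 members, and above in 5.11%. Of the 8 differences 5 were negative and 3 positive. Their median was -0.07, beside 0.02 over all genes, of which 41.87% had a negative difference. The members' median was -0.13 without Ppara-/- replicate 2 and likewise -0.13 without Ppara+/+ replicate 1.

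**Figure D1:**
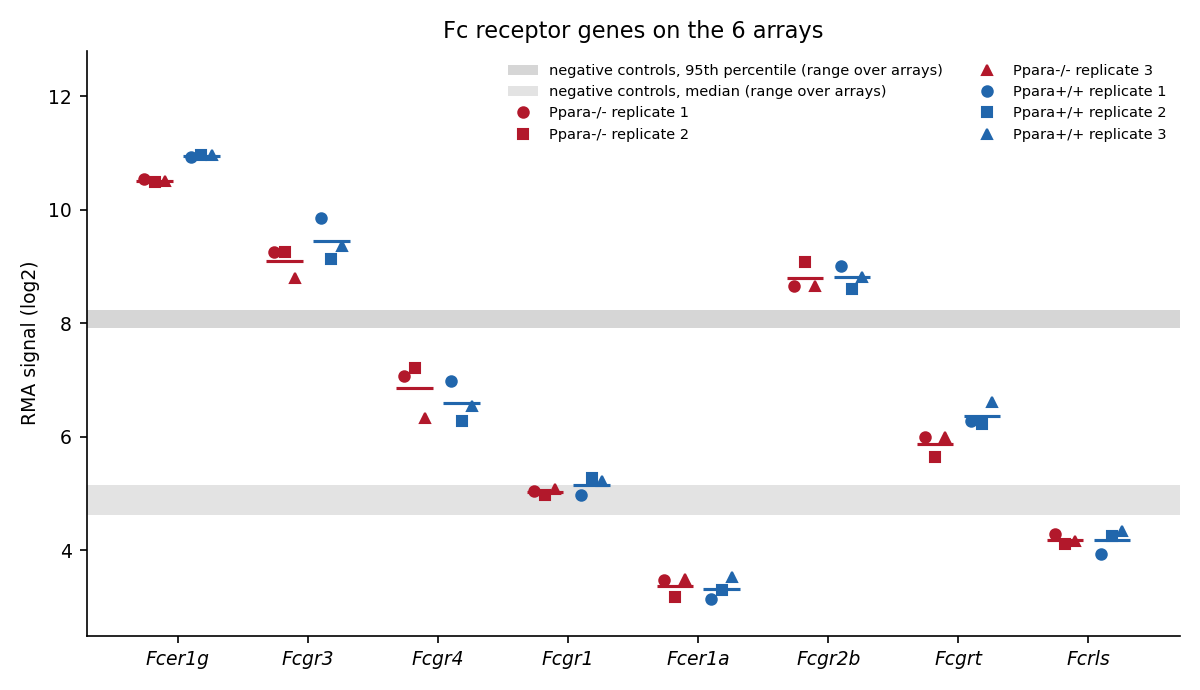
RMA signal (log2) of the 8 Fc receptor genes, with a point for each array, Ppara-/- in red to the left of Ppara+/+ in blue, and short lines at the means of 3 arrays. Grey bands give the range over arrays of the median and the 95th percentile of the negative controls. Fcer1g lies between 10.49 and 10.97 with separated genotypes, while Fcer1a and Fcrls lie under the negative-control medians.

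Fcer1g, the shared signalling chain, had the smallest p of the 8. Its signal was 10.54, 10.49 and 10.50 on the Ppara-/- arrays, against 10.93, 10.96 and 10.97 on the Ppara+/+ arrays. The arrays of each genotype lay within 0.05 of each other, and the groups did not overlap. The log2 difference was -0.44 (SE 0.09, 95% interval -0.65 to -0.23), a signal ratio of 0.735. The test was not passed (limma adjusted p = 0.203, unadjusted p = 0.00106; exact two-sided permutation test p = 0.1, the smallest that 3 arrays against 3 allow). With any 1 array left out the difference lay between -0.46 and -0.43. Without Ppara-/- replicate 2 and Ppara+/+ replicate 1 it was -0.45 (rounded from -0.445; limma adjusted p = 0.314). Under array weights, in which arrays that vary more count less, Fcer1g passed (difference -0.44, limma adjusted p = 0.0345). Over all genes that fit called 276, against 36 without weights. The adjusted limma p of Fcer1g ran from 0.0345 to 0.728 over the 16 alternatives. The signal lay above 99.1% to 99.4% of the negative controls.

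Fcgr3, the low-affinity activating receptor for IgG, also had a lower mean in Ppara-/- cells, with overlapping groups. Its signal was 9.25, 9.26 and 8.79 on the Ppara-/- arrays, against 9.86, 9.14 and 9.36 on the Ppara+/+ arrays. Both Ppara-/- replicates 1 and 2 lay above Ppara+/+ replicate 2, and the highest value belonged to Ppara+/+ replicate 1. The difference of -0.35 (SE 0.20, 95% interval -0.81 to 0.11) did not pass (limma adjusted p = 0.997). With 1 array left out it ran from -0.51, without Ppara+/+ replicate 2, to -0.15, without Ppara+/+ replicate 1. It was -0.20 without Ppara-/- replicate 3, and -0.23 without Ppara-/- replicate 2 and Ppara+/+ replicate 1. On the same arrays, Fcer1g minus Fcgr3 differed by -0.09 between genotypes, with overlapping groups. Fcer1g minus Fcgr4 differed by -0.71, also with overlapping groups, and Fcer1g minus Fcgr1 by -0.31, with groups that did not overlap. For Fcer1g minus Fcgr1 the exact permutation test gave p = 0.1, and 0.3 after Benjamini-Hochberg adjustment over the 3 pairs. The groups of Fcer1g alone did not overlap and Fcgr1 lay near the negative-control medians, so this separation is not independent of that of Fcer1g. These 3 pairs were chosen after the values were seen.

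Fcgr4, the mouse activating receptor of intermediate affinity that monocytes and neutrophils carry, was the member with the highest positive difference and the widest spread. Its signal was 7.07, 7.21 and 6.33 on the Ppara-/- arrays, against 6.98, 6.28 and 6.55 on the Ppara+/+ arrays. Ppara-/- replicate 3 was close to the lowest Ppara+/+ array, and Ppara+/+ replicate 1 close to the higher Ppara-/- arrays. The difference was 0.27 (SE 0.25, 95% interval -0.30 to 0.84; limma adjusted p = 0.997). It came to 0.54 without Ppara-/- replicate 3 and to 0.10 without Ppara-/- replicate 2. Without the 2 arrays with high negative-control medians it was 0.29 (rounded from 0.285). On each array the signal lay under the 95th percentile of the negative controls, above 79.2% to 88.7% of them.

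Fcgr1 encodes the high-affinity IgG receptor of monocytes and macrophages, which interferon gamma induces. Its signal was 5.04, 4.97 and 5.08 on the Ppara-/- arrays, against 4.98, 5.27 and 5.23 on the Ppara+/+ arrays. The groups overlapped through Ppara+/+ replicate 1, and the values lay above only 46.1% to 62.0% of the negative controls. The difference was -0.13 (SE 0.11, 95% interval -0.39 to 0.13; limma adjusted p = 0.997). It came to -0.22 without Ppara+/+ replicate 1 and to -0.075 without Ppara+/+ replicate 2. Without Ppara-/- replicate 2 and Ppara+/+ replicate 1 it was -0.19. A change in a transcript this close to background could be missed.

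Fcer1a encodes the IgE-binding chain of the high-affinity IgE receptor of mast cells and basophils, a receptor that also uses the FcRγ chain. Its signal was 3.48, 3.18 and 3.49 on the Ppara-/- arrays, against 3.15, 3.30 and 3.53 on the Ppara+/+ arrays, and each value was lower than its array's negative-control median. The difference of 0.06 had a 95% interval of -0.26 to 0.37 (limma adjusted p = 0.997), and its sign changed without Ppara+/+ replicate 1 (-0.03), while without that array and Ppara-/- replicate 2 it was 0.07. Ms4a2, the β chain of the same receptor, was likewise under the negative-control medians, at 4.12 ± 0.20 in Ppara-/- and 3.91 ± 0.09 in Ppara+/+ cells (SD, n = 3 each).

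The inhibitory receptor Fcgr2b had close means in both genotypes. Its signal was 8.66, 9.08 and 8.65 on the Ppara-/- arrays, against 9.01, 8.60 and 8.82 on the Ppara+/+ arrays. As in Fcgr3 and Fcgr4, the highest value of each genotype stood on the array with that genotype's highest negative-control median. These arrays were Ppara-/- replicate 2 and Ppara+/+ replicate 1. The fit without these 2 arrays gave a difference of -0.06 (rounded from -0.055), and the fit with the negative-control signal as a covariate gave 0.10 (limma adjusted p = 0.813). The difference over the 6 arrays was -0.01 (SE 0.16, 95% interval -0.37 to 0.34; limma adjusted p = 0.997), and its sign changed with the array left out. The ligand-binding parts of FcγRIIB and FcγRIII are near-identical in the mouse, and the files do not say whether the probes of Fcgr2b and Fcgr3 tell the transcripts apart.

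Fcgrt encodes FcRn, a relative of MHC class I molecules that pairs with β2-microglobulin and returns IgG from endosomes to the cell surface. Its signal was 6.0, 5.64 and 6.0 on the Ppara-/- arrays, against 6.28, 6.23 and 6.61 on the Ppara+/+ arrays. The groups did not overlap, with a gap of 0.23 between them set by Ppara+/+ replicate 2. The difference of -0.49 (SE 0.15, 95% interval -0.83 to -0.16) was the largest of the 8 in size and did not pass (limma adjusted p = 0.509, unadjusted p = 0.00908; exact two-sided permutation test p = 0.1, the smallest possible). With 1 array left out it lay between -0.57 and -0.37, and without Ppara-/- replicate 2 and Ppara+/+ replicate 1 it was -0.42. The signal lay above 62.3% to 80.0% of the negative controls and under their 95th percentile on each array. B2m, which encodes β2-microglobulin and was singled out for its role, was at 11.46 ± 0.20 in Ppara-/- and 11.53 ± 0.23 in Ppara+/+ cells (SD, n = 3 each; difference -0.07, limma adjusted p = 0.997).

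Fcrls, an Fc receptor-like gene of the mouse known as a marker of microglia, was close to background. Its signal was 4.29, 4.11 and 4.17 on the Ppara-/- arrays, against 3.93, 4.26 and 4.35 on the Ppara+/+ arrays, again under every array's negative-control median. The difference was 0.01 (95% interval -0.29 to 0.31; limma adjusted p = 0.997), and its sign changed with the array left out and without Ppara-/- replicate 2 and Ppara+/+ replicate 1 together (-0.075).

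**Figure D2:**
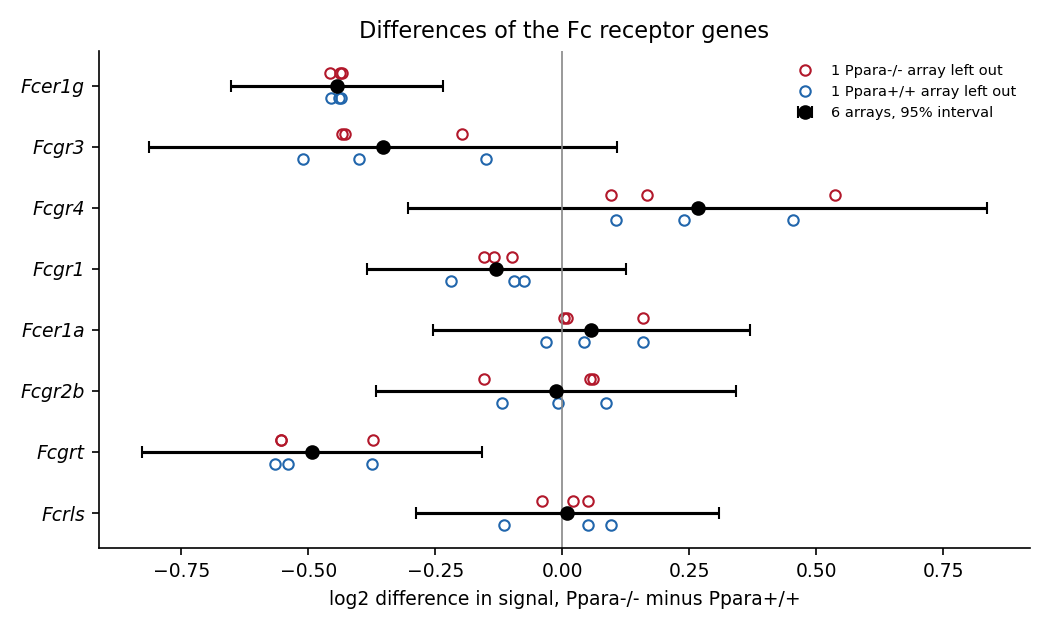
Log2 difference in signal, Ppara-/- minus Ppara+/+, for the 8 Fc receptor genes (rows); black points and bars give the fit to 6 arrays with its 95% interval, and open circles the fits with 1 array left out, red for a Ppara-/- array and blue for a Ppara+/+ array. The circles of Fcer1g lie between -0.46 and -0.43, whereas those of Fcgr4 run from 0.10 to 0.54.

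Promoter windows from RefSeq (GRCm38.p6), from 250 bases before to 50 after an annotated start site, were found for each of the 8 genes. They were searched on both strands for GAGGAA, the core bound by the myeloid factor PU.1, and for TTCNNNGAA, the site type of STAT factors. The motifs do not overlap each other in these windows. The 8 genes had 9 windows, since Fcgr3 has 2 that overlap. GAGGAA was in 6 of the 9 windows, of 5 genes, beside 28.3% of the 32851 windows in the table, and TTCNNNGAA in 1 of 9, that of Fcgr1, beside 8.3%. The motifs were picked from background knowledge after the windows had been read. The windows of Fcer1g and Fcgrt, the genes whose genotypes did not overlap, hold neither motif, nor does that of Fcgr2b. They are shown with those of Fcgr3 and Fcgr1, which hold GAGGAA as its reverse complement, written 5′ to 3′ along the gene with matches in capitals.
Fcer1g (chr1:171234300-171234599, minus strand): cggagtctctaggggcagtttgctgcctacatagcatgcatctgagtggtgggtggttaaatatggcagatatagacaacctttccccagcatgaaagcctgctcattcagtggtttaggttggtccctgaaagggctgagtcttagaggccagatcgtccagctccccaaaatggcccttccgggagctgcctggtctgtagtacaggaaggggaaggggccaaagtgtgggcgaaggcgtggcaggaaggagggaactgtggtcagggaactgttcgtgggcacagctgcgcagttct
Fcgrt (chr7:45103773-45104072, minus strand): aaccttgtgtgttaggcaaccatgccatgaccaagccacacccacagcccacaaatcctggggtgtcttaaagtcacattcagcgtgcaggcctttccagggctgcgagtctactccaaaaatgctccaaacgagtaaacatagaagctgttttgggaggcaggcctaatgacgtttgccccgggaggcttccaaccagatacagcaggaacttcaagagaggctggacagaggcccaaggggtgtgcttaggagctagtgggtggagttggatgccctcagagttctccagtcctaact
Fcgr3 (chr1:171059354-171059653, minus strand): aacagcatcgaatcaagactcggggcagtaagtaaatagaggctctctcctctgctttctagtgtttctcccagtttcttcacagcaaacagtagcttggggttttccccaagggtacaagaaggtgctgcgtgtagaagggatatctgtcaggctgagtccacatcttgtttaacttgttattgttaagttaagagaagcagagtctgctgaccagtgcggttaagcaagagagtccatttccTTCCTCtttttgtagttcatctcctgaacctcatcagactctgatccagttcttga
Fcgr1 (chr3:96293920-96294219, minus strand): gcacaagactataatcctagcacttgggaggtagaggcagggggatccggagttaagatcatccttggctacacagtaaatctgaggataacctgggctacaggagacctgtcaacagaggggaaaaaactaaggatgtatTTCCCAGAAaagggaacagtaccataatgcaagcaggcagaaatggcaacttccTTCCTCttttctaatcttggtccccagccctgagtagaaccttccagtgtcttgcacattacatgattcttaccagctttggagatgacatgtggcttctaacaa
Of the windows of Fcgr3, which share the match, 1 is shown. There the capitals lie from 6 to 1 bases before that window's start site, and in the other window from 15 to 10 bases before its own. Both windows lie inside the gene Fcgr3, which spans chr1:171051169-171065915. In Fcgr4 the same letters lie from 22 to 17 bases before the start. In Fcgr1 they lie from 55 to 50 bases before the start, and the STAT-type match TTCCCAGAA from 109 to 101. A match is a description of the letters and not of binding.

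A list of ITAM adaptors, receptors that pair with them and related genes had 14 negative and 6 positive differences among 20 measured genes. Its median was -0.07, and 0 passed in limma. At an unadjusted limma p under 0.05, 4 were lower and 2 higher, beside 2.60% and 3.14% of all genes. The related genes Clec7a, Hcst and Pirb, an inhibitory receptor gene (difference -0.48), were among those under 0.05, and are neither ITAM adaptors nor their partners. Tyrobp, which encodes the other ITAM adaptor DAP12, was at 10.95 ± 0.08 in Ppara-/- and 10.98 ± 0.14 in Ppara+/+ cells (SD, n = 3 each; difference -0.03, limma adjusted p = 0.997); it was singled out for its role. Tarm1, a receptor that signals through the FcRγ chain, was at 6.46 ± 0.30 in Ppara-/- and 7.46 ± 0.38 in Ppara+/+ cells (difference -1.0, limma adjusted p = 0.215), and its groups did not overlap. On each array Tarm1 lay under the 95th percentile of the negative controls. The receptor genes Oscar (difference -0.02), Clec4e (-0.07) and Clec4d (-0.14) of the same list differed less. Clec7a, the β-glucan receptor Dectin-1 with an ITAM-like motif of its own, was at 8.07 ± 0.35 in Ppara-/- and 9.15 ± 0.37 in Ppara+/+ cells (difference -1.08, limma adjusted p = 0.198). In the other direction, the adaptor gene Hcst was at 7.62 ± 0.08 in Ppara-/- and 7.19 ± 0.08 in Ppara+/+ cells (limma adjusted p = 0.279), and Treml4 of the TREM receptor family at 7.15 ± 0.07 and 6.61 ± 0.22 (limma adjusted p = 0.285). The SDs are over 3 arrays each. The groups of Tarm1, Clec7a, Hcst and Treml4 did not overlap, as in 8.73% of all genes.

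The kinases and adaptors that carry the activating signal had 21 negative and 17 positive differences among 38 measured genes, a median of -0.03, and 0 calls in limma (2 at an unadjusted p under 0.05, both lower). Syk, singled out as the kinase that binds the phosphorylated ITAM, was at 9.07 ± 0.06 in Ppara-/- and 9.0 ± 0.11 in Ppara+/+ cells (SD, n = 3 each). The 4 smallest p-values belonged to Malt1, a paracaspase of the NF-κB branch (difference -0.39, limma adjusted p = 0.819), Rac1, a GTPase of phagocytic cups (-0.31), the phosphoinositide kinase gene Pik3cd (-0.20) and the GTPase gene Cdc42 (-0.29). Of these, Pik3cd alone had groups that did not overlap.

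Among genes of the inhibitory arm Siglece fell in Ppara-/- cells, the 1 call among 23 measured genes. Siglece encodes an ITIM receptor that binds sialic acid on neighbouring cells, and its signal was 7.86, 8.14 and 7.91 on the Ppara-/- arrays, against 9.13, 8.96 and 8.99 on the Ppara+/+ arrays (difference -1.06, SE 0.11, limma adjusted p = 0.0195). Siglece did not pass without Ppara-/- replicate 1, Ppara-/- replicate 3 or Ppara+/+ replicate 3, where limma's adjusted p was 0.143, 0.0712 and 0.0981. Nor did it pass with the replicate block (0.0823), with median centring (0.183) or without Ppara-/- replicate 2 and Ppara+/+ replicate 1 (0.0903), with differences between -1.09 and -1.0017 over these 6 fits. The DOK adaptors, which dampen tyrosine kinase signals, had higher signals in Ppara-/- cells in each of 3 measured genes without passing. Dok2 was at 7.68 ± 0.10 in Ppara-/- and 7.07 ± 0.18 in Ppara+/+ cells (limma adjusted p = 0.192), Dok3 at 10.21 ± 0.07 and 9.85 ± 0.10 (adjusted p = 0.476), and Dok1 at 7.41 ± 0.12 and 7.11 ± 0.13 (adjusted p = 0.771; SD, n = 3 each). Inpp5d, the phosphatase that FcγRIIB recruits, was at 9.34 ± 0.04 in Ppara-/- and 9.33 ± 0.16 in Ppara+/+ cells. The list had 13 negative and 10 positive differences and a median of -0.02.

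Other immunoglobulin receptors had 6 negative and 7 positive differences among 13 genes, with a median of 0.02 and 0 calls in limma (1 at an unadjusted p under 0.05, lower). That gene was Fcrl1, an Fc receptor-like gene of B cells, at 4.63 ± 0.15 in Ppara-/- and 4.94 ± 0.19 in Ppara+/+ cells. The list of complement receptors, only some of which share opsonic phagocytosis with Fc receptors, also held the complement regulators Cd46, Cd55 and Cd59a. It had 8 negative and 5 positive differences among 13 genes, a median of -0.09, 0 calls in limma and 0 at an unadjusted p under 0.05. C3ar1, which had the smallest p of that list, was at 4.53, 4.43 and 4.42 on the Ppara-/- arrays, against 4.55, 4.51 and 5.80 on the Ppara+/+ arrays. Its difference of -0.49 rests on Ppara+/+ replicate 3.

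Genes known to control Fc receptor transcription had 13 negative and 5 positive differences among 18 measured genes, a median of -0.05, and 0 calls in limma (3 at an unadjusted p under 0.05, all lower). Over all genes 2.60% were lower at that unadjusted level. Irf8, a transcription factor of monocyte development, had signals of 8.47, 7.13 and 8.64 on the Ppara-/- arrays, against 8.84, 8.91 and 8.88 on the Ppara+/+ arrays. The groups did not overlap, and Ppara-/- replicate 2 stood more than 1 unit under the rest (difference -0.80, limma adjusted p = 0.861). Without that array the difference was -0.32, and without Ppara+/+ replicate 1 as well it was -0.34 (limma adjusted p = 0.419). Ifngr2, a chain of the interferon gamma receptor, was at 8.56 ± 0.12 in Ppara-/- and 8.93 ± 0.24 in Ppara+/+ cells, and the interleukin-10 receptor gene Il10ra at 6.46 ± 0.62 and 7.18 ± 0.27. Irf1, an interferon-induced factor, was at 8.06 ± 0.44 in Ppara-/- and 7.62 ± 0.11 in Ppara+/+ cells (SD, n = 3 each).

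**Figure D3:**
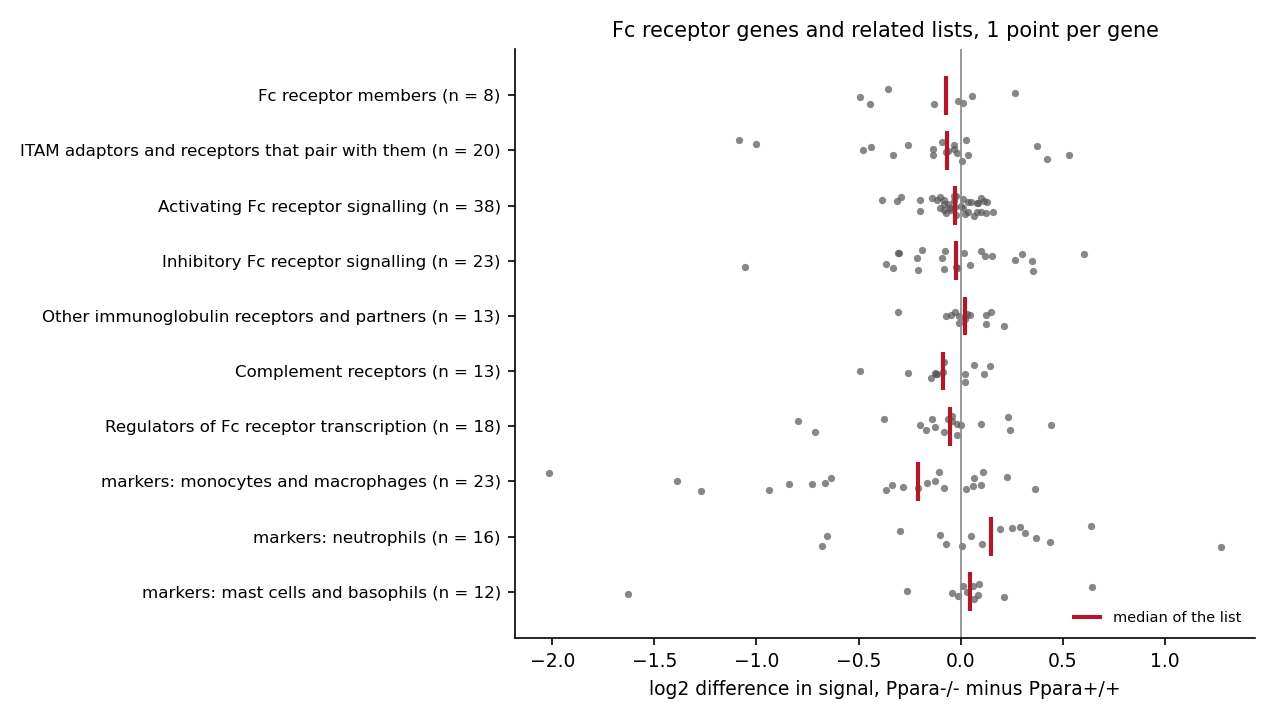
Log2 difference in signal, Ppara-/- minus Ppara+/+, with 1 point per gene for the Fc receptor genes, 6 related lists and 3 marker lists (rows), and a red line at each median. The medians of the 6 related lists lie between -0.09 and 0.02, and that of the monocyte and macrophage markers is -0.21.

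Markers of monocytes and macrophages had a median difference of -0.21, in the direction of Fcer1g and Fcgrt. Of 23 measured markers, 16 had a negative difference, 9 had groups that did not overlap with Ppara-/- below, and 0 passed in limma (9 at an unadjusted p under 0.05, all lower). Over all genes, 3.62% had such groups, 2.60% were lower at that unadjusted level, and 0.117% passed. The summed linear signal of the list was 15973 to 17215 on the Ppara-/- arrays, against 19444 to 23445 on the Ppara+/+ arrays. Ly86, a surface protein of monocytes and B cells, was at 8.17 ± 0.43 in Ppara-/- and 9.44 ± 0.29 in Ppara+/+ cells (limma adjusted p = 0.129), and the macrophage glycoprotein gene Cd68 at 8.98 ± 0.19 and 9.70 ± 0.14 (adjusted p = 0.138; SD, n = 3 each). Without Ppara-/- replicate 2 and Ppara+/+ replicate 1 the difference of Ly86 was -0.86, against -1.27 with them, and the median of the list was -0.21 (rounded from -0.205). Over the 6 arrays 7 markers of the list had a positive difference, the highest in Ccr2 (0.37) and Cd14 (0.23). The macrophage markers Mrc1, Vsig4, Mertk and Ms4a7 lay at or under the negative-control median on each array. The part of these cells in the Fc receptor results was not tested, and in sorted bulk RNA fewer cells of a type and less RNA per cell cannot be told apart.

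Neutrophil markers had 11 positive and 5 negative differences among 16 genes, with a median of 0.15 and 0 calls in limma. At an unadjusted limma p under 0.05, 3 were higher and 3 lower, beside 3.14% and 2.60% of all genes. The summed signal of the neutrophil markers was 34235 to 39995 on the Ppara-/- arrays, against 31228 to 41183 on the Ppara+/+ arrays. Retnlg, a resistin-like gene of mature neutrophils, was at 6.27 ± 0.52 in Ppara-/- and 5.0 ± 0.31 in Ppara+/+ cells (limma adjusted p = 0.192), and Stfa2l1, a stefin gene, at 11.98 ± 0.23 and 12.65 ± 0.17 (adjusted p = 0.215). Markers of mast cells and basophils, the cells of Fcer1a, had a median of 0.05 over 12 genes, a summed signal of 1116 to 1322 in Ppara-/- and 1197 to 1426 in Ppara+/+ cells, and 0 calls in limma (1 at an unadjusted p under 0.05). That marker was the protease gene Cpa3, at 5.07 ± 1.11 in Ppara-/- and 6.70 ± 0.41 in Ppara+/+ cells. Its difference was -1.63, and -1.03 without Ppara-/- replicate 2. In the other direction, Mcpt8 was at 6.84 ± 0.36 in Ppara-/- and 6.20 ± 0.74 in Ppara+/+ cells, with overlapping groups (difference 0.64, limma adjusted p = 0.982). Ms4a2, Mcpt4, Cma1 and Cd200r3 lay at or under the negative-control medians.

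The other marker lists had 0 calls in limma and at most 1 gene each at an unadjusted p under 0.05. Their median differences were 0.07 for B cells (11 genes), 0.01 for NK cells (10), 0.02 for T cells (11), 0.01 for dendritic cells (12), 0.01 for erythroid cells (7), 0.09 for megakaryocytes and platelets (7) and -0.01 for microglia (7). Cd3g and Cd4 of T cells, Ms4a1 of B cells and Klrb1c and Ncr1 of NK cells lay at or under the negative-control median on each array. P2ry12 and Gpr34, microglial genes that share this cell type with Fcrls, did too. Such low markers were 3 of 11 for T cells, 5 of 11 for B cells, 7 of 10 for NK cells and 2 of 7 for microglia. Other markers lay above the negative-control median on all 6 arrays. Among these were the microglial markers Tmem119 (7.01 in Ppara-/- and 7.07 in Ppara+/+ cells) and Cx3cr1 (7.16 and 7.52), and Cd79b of B cells (7.50 and 7.89).

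Genes next to the Fc receptor genes on their chromosomes showed no call. Fcgr2b, Fcgr4, Fcgr3, Fcer1g and Fcer1a lie in this order on chromosome 1, Fcrls and Fcgr1 on chromosome 3 and Fcgrt on chromosome 7 (GRCm38.p6). Fcer1g is at chr1:171229572-171234349 and Fcgrt at chr7:45092993-45103822. Over the 4 measured genes on each side of every member, 48 genes without the members, the median difference was 0.03, 20 differences were negative, and 0 genes passed in limma (4 at an unadjusted p under 0.05). The 8 neighbours of Fcer1g had differences between -0.12 and 0.19.

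The genes whose pattern over the 6 arrays was most like that of Fcer1g were Tgfb1, Necap2, Rnf7 and Crtc3, with root mean square differences of 0.06 to 0.08 between mean-centred log2 signals, out of 2864 protein-coding genes with a mean over 7.91. Tgfb1, the cytokine gene, was at 9.92 ± 0.03 in Ppara-/- and 10.38 ± 0.09 in Ppara+/+ cells (SD, n = 3 each). Those most like Fcgrt were Ly6e, Mef2d, Evl and Ctsh, with root mean square differences of 0.09 to 0.11, out of 2865 such genes. Like Fcgrt, Ly6e was lowest on Ppara-/- replicate 2 (8.27) and highest on Ppara+/+ replicate 3 (9.33). These genes were picked for likeness over 6 arrays, and nothing about shared control follows from it.

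**Figure D4:**
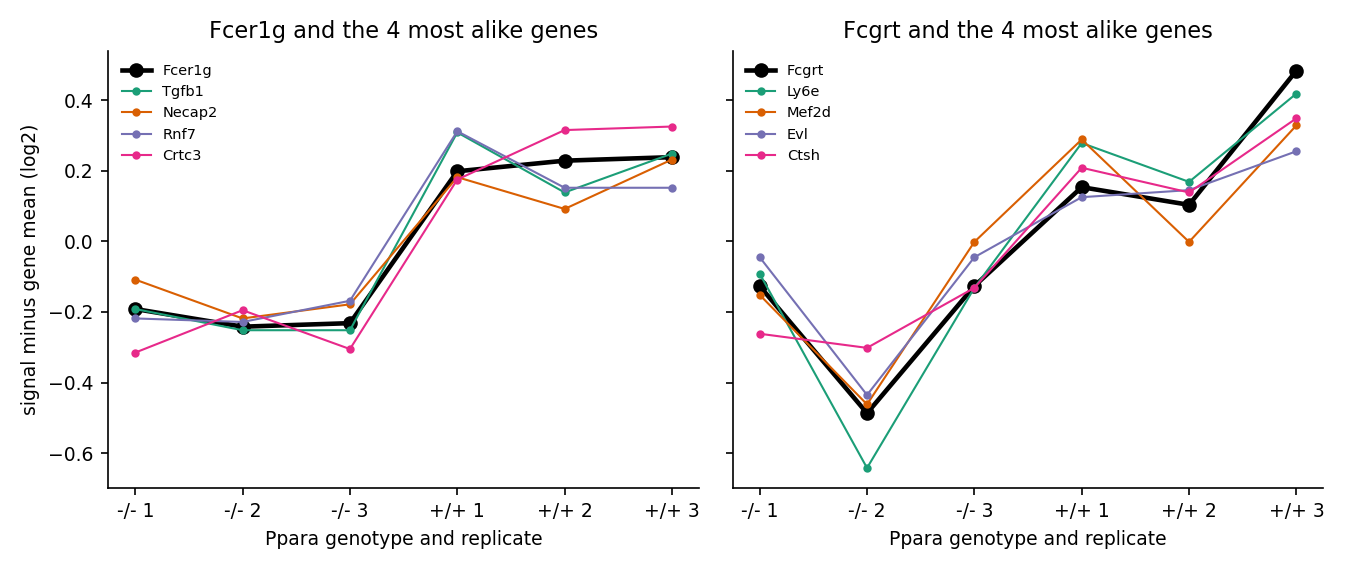
Signal minus the gene's mean (log2) on the 3 Ppara-/- and 3 Ppara+/+ arrays, for Fcer1g with its 4 most alike genes (left) and Fcgrt with its own (right). Fcer1g steps between 2 flat levels, whereas Fcgrt is lowest on Ppara-/- replicate 2 and highest on Ppara+/+ replicate 3.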

How the data were processed

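RNA was measured on Affymetrix arrays in 6 samples, grouped and numbered by their titles. The deposited values are log2 signals, and per the submitters' processing notes the authors used RMA (background correction, quantile normalization and probe summary) and limma, with versions and genome build not given in the sources used here. Quantile normalization would remove a shift of most genes in 1 direction. The array model is uncertain, since the form of the probe set names is not that of the model in the design text.

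Of 72688 rows 6732 were controls, 5222 of them negative. In GEO's platform annotation 31216 rows had 1 gene symbol and 1534 had more; the other 33206 are unnamed here. RefSeq (GRCm38.p6) gave current symbols by gene ID. Each of 30745 genes was tested through its row with the highest mean, in limma 3.58.1 (two-sided; lmFit, then eBayes, genotype as the only term). P-values were adjusted over the 30745 genes by Benjamini-Hochberg. The fit was tested on simulated data. No filter on dim genes was set, as there are no detection calls, and the number of arrays limits the precision.

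The members and gene lists were chosen with earlier results of these data known. Named genes were each member, up to 4 genes per related list and 2 per marker list (calls first, then smallest p), and the 4 most alike genes of Fcer1g and of the member with the largest difference; genes singled out for their role or for the check of the label are outside this rule.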

Additional observations from a re-analysis of the deposited data

How the results depend on the processing

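Each of the 8 Fc receptor genes kept its side of the threshold in each of the 15 or 16 other fits that held it, except Fcer1g, which passed under array weights (difference -0.44, limma adjusted p = 0.0345), so that 1 member was called there. With 6 arrays and no weights, 2 members had an unadjusted p under 0.05, a level added after seeing the data. Fcer1g, Fcgrt, Fcgr3 and Fcgr1 kept a negative and Fcgr4 a positive sign throughout. The sign of Fcgr2b turned with quantile normalization (0.019) and with the negative-control signal as a covariate (0.10), and with 1 array left out it ran from -0.16 to 0.087. That of Fcrls turned with median centring (-0.010), array weights (-0.040), the negative-control covariate (-0.065) and without Ppara-/- replicate 2 and Ppara+/+ replicate 1 (-0.075), which had the highest negative-control medians, and ran from -0.12 to 0.10 with 1 array left out. That of Fcer1a turned with the covariate (-0.020) and ran from -0.032 to 0.16. The members' median was -0.35 under the filter on dim genes, by which only Fcer1g, Fcgr3 and Fcgr2b were kept.

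Over all genes 36 were called. The count was 69 with a trended and robust prior, 13 with median centring, 4 under the filter on dim genes, 276 with array weights, 0 without those 2 arrays (2946 at an unadjusted p under 0.05 in limma), 74 at an adjusted p under 0.1, 1766 at an unadjusted p under 0.05, and 6 to 36 with 1 array left out. With the replicate block it was 12, and the Fc receptor calls stayed at 0. Deviations of same-numbered arrays from their group means had correlations of -0.33, -0.47 and 0.11. With 3 arrays per genotype these cannot decide whether the numbers pair the samples, which the labels do not state. The inhibitory list had 0 to 3 calls over these fits (0 with median centring, with the replicate block and without those 2 arrays) and the ITAM list 0 to 2. The cause of these differences was not tested. On every array 5 of the 8 members lay under the 95th percentile of the negative controls, which limits what can be seen in them.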
